A study of Homo sapiens with 9 samples.

Results

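The comparison described here set human cells exposed to 60 nM okadaic acid (OA) for 12 h against untreated cells of the same line, gene by gene. It compared the 3 arrays of each group, 6 of the 9 arrays in the study, and covered 22465 genes with a symbol of their own. The remaining 3 arrays carried RNA of cells given 20 nM OA for 12 h. They entered the model that gave the p-values, and their values stand beside the main ones where they help to place them. All cells were labelled as SH-SY5Y, a human neuroblastoma line, and were grown in medium with serum. The source names give 60 nM for the arrays called 60 nM here, as does the design text for their title code C2, whereas their treatment field reads 20 nM. The 3 samples of a group are labelled as biological replicates, with nothing on separate cultures. The p-values therefore measure only the spread between samples within the 3 groups.

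OA is a polyether toxin made by marine dinoflagellates. It blocks serine/threonine phosphatases of the PP2A and PP1 type, which take phosphate off a large share of cellular proteins, and so leaves many kinases and their substrates in the phosphorylated state. In neuronal cells it is widely used to raise the phosphorylation of tau. Phosphorylated transcription factors such as CREB, Jun and the ETS proteins drive genes that are silent or low in resting cells.

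Values are log2 of the deposited intensities, and a difference is the mean of the 3 arrays at 60 nM minus the mean of the 3 untreated arrays. A gene is said to have changed, risen or fallen where its adjusted p was under 0.05. The p came from a limma model of all 9 arrays and was adjusted over all genes. A change is called large where it was also at least 2-fold. An array reading was taken as background at or below 5.82, the 95th percentile of the 23 background probe sets. Median log2 intensity was 4.42 to 4.43 on the untreated arrays and 4.45 to 4.51 at 60 nM. The labelled identity was only partly borne out. Of 9 noradrenergic neuroblastoma markers, GATA3 alone was above background in untreated cells (7.32 ± 0.06, SD, n = 3), and TH, DBH and PHOX2A, the enzymes and regulator that define such cells, lay at 4.57, 4.22 and 3.49. By contrast 4 of 5 mesenchymal markers (VIM, CD44, FN1 and SNAI2) and 2 of 4 epithelial ones (KRT8 and KRT18, but not EPCAM or CDH1) were above background, while 0 of 3 glial and 0 of 3 leukocyte markers were. The log2 of the summed intensities of the noradrenergic list ran from 8.35 to 8.42 on the untreated arrays and from 8.31 to 8.38 at 60 nM. That of the mesenchymal list ran from 12.2 to 12.4 and from 12.7 to 12.9, and that of the epithelial list from 13.9 to 14.2 and from 13.8 to 13.9. Such sums mostly follow their brightest members. Within the noradrenergic list GATA3 fell by 0.23, and ISL1, with both means under background, rose by 0.47. The part of any change in cell state in the results below was not tested, and in bulk RNA fewer cells of a type and less RNA per cell cannot be told apart.

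Over all genes, 4752 of 22465 changed at 60 nM (21.2%), 1783 of them higher (7.94%) and 2969 lower (13.2%). Among the 9784 genes whose mean over the 9 arrays was above background the share was 40.5%, with 14.5% higher and 26.1% lower. Falls were thus more frequent, but large changes were mostly rises: 472 genes rose by 2-fold or more (2.1%) against 297 that fell as far (1.32%), in all 769 genes or 3.42%. Among genes above background the shares were 4.48%, 2.98% and 7.46%. At 4-fold the counts were 93 and 12, and at 8-fold 26 and 0, with readings at background taken as they stand. At 16-fold, with readings taken in the same way, the rises numbered 10. ACTBL2, HBEGF and TNFSF9 were among them with all arrays above background, and ATP1B2, CCDC80 and GABRQ passed 16-fold by their lower bounds. JUNB and SNAI1, with untreated arrays on both sides of background, were also among them, and their readings are given below. Scaling bears on the counts of smaller changes: with arrays shifted by their hybridisation controls 1147 genes rose and 1101 fell, and with the score for chromosomal position described below 1861 fell, while large rises numbered 502 and 393 and large falls 290 and 264. The groups of 3 arrays did not overlap in any of the 769 large changes, which their choice by size and adjusted p nearly ensures. The groups also did not overlap in 33.3% of all genes and in 58.1% of genes above background.

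**Figure D1:**
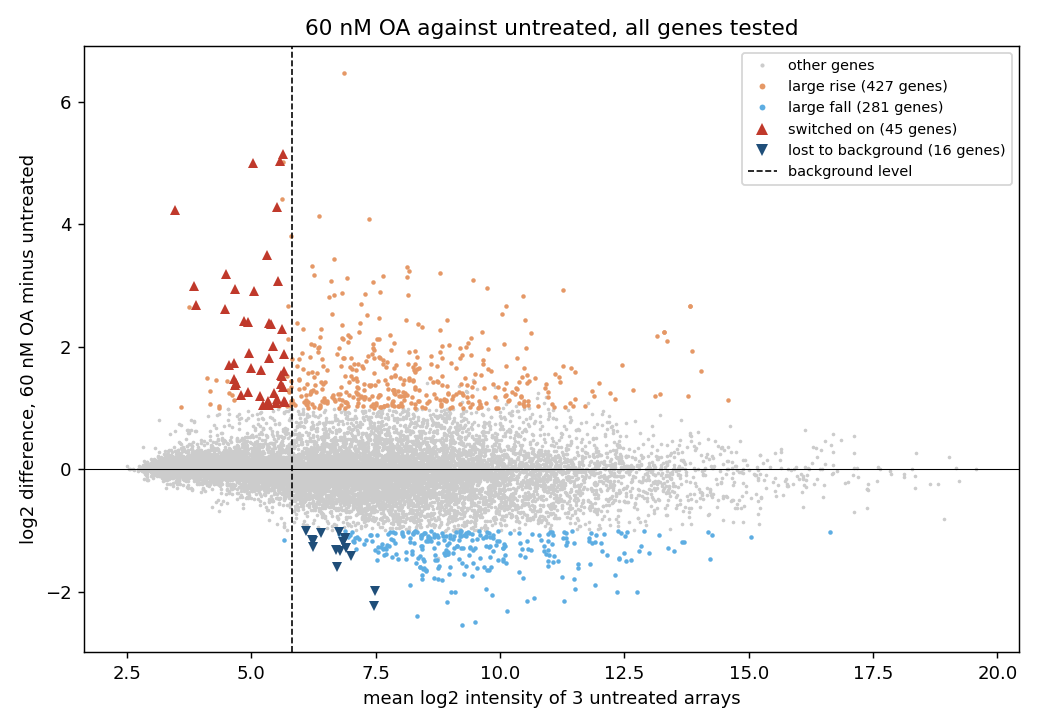
Difference between 60 nM OA and untreated cells (vertical axis, log2) against the mean of the 3 untreated arrays (horizontal axis, log2 intensity), 1 point per gene. Coloured points are the 769 large changes, triangles the 45 genes that left background and the 16 that reached it, and the dashed line marks the background level of 5.82. Rises extended to a log2 difference of 6.46 and falls to -2.54.

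One feature of the untreated arrays touches part of the rises. In 60 of the 472 large rises the 3 untreated arrays had an SD of 0.5 or more, and in 59 of these 60 the value was highest on untreated replicate 1 and lowest on untreated replicate 3. At 60 nM the SD reached 0.5 in 0 of the 60, and its median was 0.0704 against 0.619 in untreated cells. The median difference of these genes was 1.43. It was 1.14, with 39 of the 60 still called, when untreated replicate 3 was left out, and 0.80, with 12 called, when a score of each array for chromosomal position (how far genes of gene-dense chromosomes stood above those of gene-poor chromosomes on it) entered the model as a covariate. The score was made from these same values and ran from -0.02 to 0.14 on the untreated arrays and from -0.11 to -0.03 at 60 nM. Since it differed between the groups, a fit with it also takes out part of the difference at 60 nM. A call lost with the score cannot separate the 2. None of the 297 large falls had such a spread. Members of this group are marked as widely spread where they are named below.

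**Figure D2:**
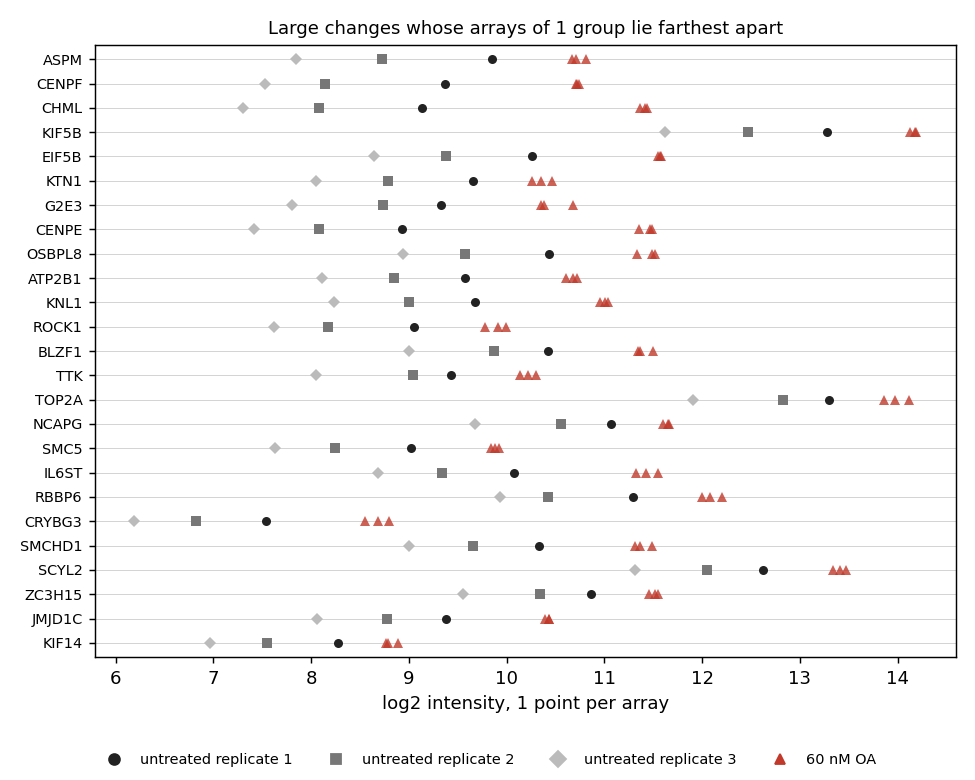
Log2 intensity (horizontal axis) of the 25 large changes whose arrays lay farthest apart within 1 group, 1 row per gene and 1 point per array. The untreated points of a gene lie far apart, in the order replicate 3, 2, 1 from low to high, whereas the 3 points at 60 nM lie close together and to the right of them.

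A set of 45 genes went from background on all 3 untreated arrays to above it on all 3 at 60 nM with a large rise, and can be described as switched on. Since the untreated level lies at or under the background level, the fold given for these genes is a lower bound, the mean at 60 nM over the background level. The count depends on where background is set: it was 23 with the 90th percentile of the background probe sets and 94 with their highest value. The brightest at 60 nM was ATP1B2, a beta subunit of the sodium pump, with 5.62, 5.65 and 5.66 on the untreated arrays and 10.83, 10.45 and 11.09 at 60 nM. It stood at least 31.3-fold higher (adjusted p = 3.63e-06). CCDC80, a secreted matrix protein, read 5.46, 5.65 and 5.66 against 10.69, 10.41 and 10.76, at least 27.9-fold higher (adjusted p = 1.78e-06). GABRQ, the theta subunit of the GABA-A receptor, read 4.98, 5.03 and 5.09 against 9.97, 9.86 and 10.30, at least 18.7-fold higher (adjusted p = 2.55e-06). TENT5C, a poly(A) polymerase that lengthens the tails of messenger RNAs, read 5.40, 5.52 and 5.60 against 9.88, 9.55 and 9.95, at least 15.7-fold higher (adjusted p = 2.56e-06). In each of these 4 genes all arrays at 60 nM stood more than 3 log2 units above the background level.

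The others were of varied function. RND1, which loosens the actin cytoskeleton, read 5.26, 5.13 and 5.59 against 9.13, 8.48 and 8.86 (at least 8.03-fold, adjusted p = 4.41e-05). ABCB1, the drug efflux pump P-glycoprotein, read 5.63, 5.62 and 5.38 against 8.75, 8.36 and 8.76 (at least 6.97-fold, adjusted p = 1.11e-05). KITLG, the ligand of the KIT receptor, read 5.36, 4.92 and 4.90 against 7.96, 7.81 and 8.13 (at least 4.44-fold, adjusted p = 6.57e-05). DLL4, a Notch ligand best known from growing vessels, read 4.44, 4.54 and 4.51 against 7.85, 7.27 and 7.92 (at least 3.64-fold, adjusted p = 2.39e-05). ETV5, an ETS factor induced by FGF and ERK signalling, read 5.33, 5.34 and 5.54 against 7.84, 7.66 and 7.85 (at least 3.90-fold). The lowest untreated reading among the 20 brightest was that of RFPL4AL1, which read 3.60, 3.36 and 3.47 against 7.98, 7.40 and 7.77, at least 3.72-fold higher. RFPL4AL1 has a near-identical copy, RFPL4A, and its probes may not tell the copies apart. The membrane protein EMP1 (at least 4.23-fold), the sterol-binding protein STARD5 (3.77), the germ cell protein TEX14 (3.47), the muscle actin crosslinker ACTN2 (3.30) and the small GTPase RASL11A (3.14) followed. The list of 20 closed with CRISPLD2 (2.87), MIR554 (2.78), the MAP kinase phosphatase DUSP10 (2.76), the oxygen-sensing hydroxylase EGLN3 (2.57) and the ubiquitin ligase TRIM36 (2.50).

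Among the other 25, named after their values were seen, were cell surface and secreted proteins (EPHB3, PCDH19, TNFRSF9, STC1, ENPP2, MMP13, PTGER4 and TMEFF2) and small RNA genes (RNU12, RNA5-8SP3 and RNA5SP108). The AP-1 proteins FOS, FOSL1 and FOSB, the mRNA decay factor ZFP36, the WNT inhibitor NKD1 and the stress sensor ERN1 were also among them. PCDH19, an adhesion protein of the protocadherin group, had means of 3.85 and 6.85 (at least 2.04-fold higher). FOSB had the lowest bound, at least 1.14-fold. Of the 45 genes, 30 stayed at background on all 3 arrays at 20 nM, 11 lay on both sides of it and 4 were above it on all 3, namely ABCB1, DUSP10, ETV5 and SPRY4. ETV5 stood highest of these at 20 nM, with 6.09, 6.16 and 6.16, and its difference from untreated cells there had an adjusted p of 0.052.

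The sequences just upstream of 6 rises are shown. They were taken in order of the rise from the named rises whose window held a motif of the search described below. Of 31 named rises with a promoter, 20 held such a motif. GABRQ, TENT5C, RFPL4AL1 and DLL4 were switched on, ACTBL2 had the largest rise above background, and CENPE holds the full cAMP response element. Each line gives 250 bases up to the base before the RefSeq start of the gene on GRCh38.p14, 5′ to 3′ on the strand of the gene, with motif letters in capitals. The capitals mark the CCAAT box, written ATTGG on the other strand, and the cAMP response element TGACGTCA or its form TGACGNNA. Positions count back from the start of the gene.
ACTBL2: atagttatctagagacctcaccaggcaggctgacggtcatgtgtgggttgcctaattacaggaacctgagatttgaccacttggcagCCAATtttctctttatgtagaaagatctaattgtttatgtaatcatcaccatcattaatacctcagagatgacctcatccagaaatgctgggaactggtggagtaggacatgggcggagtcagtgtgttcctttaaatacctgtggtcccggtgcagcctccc
GABRQ: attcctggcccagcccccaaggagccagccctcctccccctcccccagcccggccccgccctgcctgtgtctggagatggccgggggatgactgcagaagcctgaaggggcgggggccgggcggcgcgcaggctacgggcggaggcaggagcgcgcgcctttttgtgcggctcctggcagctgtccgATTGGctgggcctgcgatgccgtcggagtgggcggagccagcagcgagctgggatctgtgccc
TENT5C: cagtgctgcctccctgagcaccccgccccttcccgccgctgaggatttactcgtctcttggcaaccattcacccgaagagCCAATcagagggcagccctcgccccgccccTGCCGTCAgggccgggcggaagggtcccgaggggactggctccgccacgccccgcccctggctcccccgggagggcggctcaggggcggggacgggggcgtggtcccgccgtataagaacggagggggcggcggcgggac
RFPL4AL1: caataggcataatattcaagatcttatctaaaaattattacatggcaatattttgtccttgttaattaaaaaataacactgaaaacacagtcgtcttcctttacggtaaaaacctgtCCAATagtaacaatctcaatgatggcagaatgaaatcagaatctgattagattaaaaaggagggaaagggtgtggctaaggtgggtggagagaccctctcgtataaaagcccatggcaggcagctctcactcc
DLL4: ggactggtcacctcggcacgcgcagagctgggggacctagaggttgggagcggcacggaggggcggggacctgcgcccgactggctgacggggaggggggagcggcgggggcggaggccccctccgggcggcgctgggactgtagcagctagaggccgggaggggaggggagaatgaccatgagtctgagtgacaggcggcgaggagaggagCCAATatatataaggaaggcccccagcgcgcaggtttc
CENPE: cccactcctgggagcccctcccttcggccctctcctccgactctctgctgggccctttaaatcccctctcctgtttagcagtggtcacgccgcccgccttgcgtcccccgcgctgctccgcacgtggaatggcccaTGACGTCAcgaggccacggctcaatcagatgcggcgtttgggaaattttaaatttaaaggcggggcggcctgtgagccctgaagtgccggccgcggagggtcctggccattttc
ACTBL2 (chr5:57482812-57483061, minus strand) has its CCAAT box at -163 to -159, and GABRQ (chrX:152637645-152637894, plus strand) at -63 to -59. TENT5C (chr1:117605798-117606047, plus strand) has a CCAAT box at -170 to -166 and the form of the cAMP response element at -140 to -133, there read on the other strand. RFPL4AL1 (chr19:55768868-55769117, plus strand) has a CCAAT box at -133 to -129 and DLL4 (chr15:40929090-40929339, plus strand) at -38 to -34, beside a run of alternating a and t. CENPE (chr4:103198344-103198593, minus strand) holds the palindrome TGACGTCA at -114 to -107.

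The search covered the promoters of all genes that had one in the RefSeq table, on both strands, with overlapping motifs counted separately. TGACGTCA was in 5.29% of 359 promoters of large rises, in 3.06% of 229 of large falls, in 3.34% of 7338 of genes above background and in 1.77% of all 27305 promoters. TGACGNNA, which includes the former, was in 14.8%, 12.2%, 11.6% and 6.78%. CCAAT was in 43.5%, 39.3%, 36.6% and 33.0%. The AP-1 motif TGANTCA was in 2.79%, 1.75%, 3.13% and 6.60%. These shares are descriptions of letters in a window. The median GC content of the same windows was 68% in large rises, 64.4% in large falls and 65.2% in genes above background.

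A smaller set of 16 genes went the other way, from above background on all 3 untreated arrays to background on all 3 at 60 nM. With the 90th percentile as background the count was 1, with the highest background value 44, and with log2(value + 16) it was 7. LOC100129034 started from 7.24, 7.67 and 7.52 and ended at 5.55, 4.75 and 5.46, at least 3.16-fold lower (adjusted p = 0.000586). GPX8, a peroxidase of the endoplasmic reticulum, went from 7.72, 7.61 and 7.12 to 5.55, 5.45 and 5.48, at least 3.17-fold lower (adjusted p = 0.00017). KICS2, a subunit of the KICSTOR complex that anchors the amino acid sensing branch of mTORC1 on lysosomes, went from 6.98, 6.97 and 7.06 to 5.45, 5.68 and 5.65 (at least 2.27-fold). SLITRK5, a synaptic adhesion protein, went from 6.63, 6.61 and 6.97 to 5.18, 5.17 and 5.08 (at least 1.88-fold). All 4 had moderate levels in untreated cells and groups that lay well apart.

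The other 12 included FENDRR, a long non-coding RNA (at least 2.13-fold lower), SLC1A1, a neuronal glutamate transporter (2.10), H6PD, the NADPH source of the endoplasmic reticulum (2.09), and TUBGCP5, a part of the gamma-tubulin ring (2.04). They also included LIPT2, which acts in lipoic acid synthesis (1.94), the zinc finger protein ZFP90 (1.85), the metalloprotease inhibitor RECK (1.49), MR1, which presents metabolites to T cells (1.35), TMEM223 (1.35), LOC90246 (1.32) and C1RL (1.22). ATR, the kinase that senses stalled replication, read 7.19, 6.75 and 6.34 against 5.74, 5.70 and 5.76, at least 1.92-fold lower (adjusted p = 0.0164). Its call did not hold without any 1 of the 60 nM replicates or without untreated replicate 2, with adjusted p between 0.0508 and 0.0564. At 20 nM 14 of the 16 genes were above background on all 3 arrays, LOC90246 lay on both sides, and C1RL was at background on all 3.

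**Figure D3:**
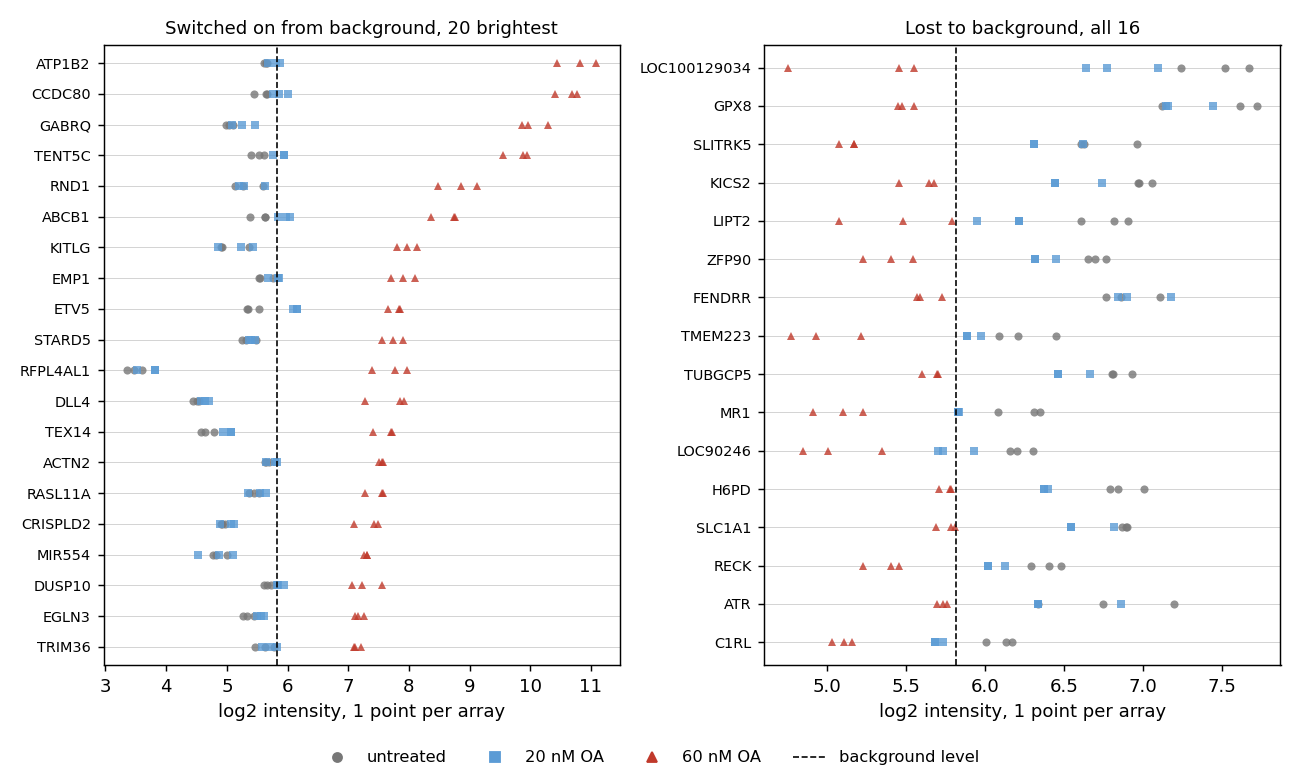
Log2 intensity (horizontal axis) of the 20 brightest genes that left background and of the 16 that reached it, 1 row per gene and 1 point per array, for untreated cells, 20 nM OA and 60 nM OA. The dashed line is the background level of 5.82. Points at 20 nM lie near the untreated ones in most rows, and points at 60 nM lie on the other side of the line.

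A further 388 large rises were above background on all 6 arrays, so that their size could be measured on both sides. ACTBL2, an actin closely related to cytoplasmic beta-actin, rose most, from 6.97, 6.94 and 6.66 to 12.99, 13.17 and 13.80, or 88.3-fold (log2 difference 6.46 ± 0.36, SE, adjusted p = 4.14e-05). HBEGF, a membrane-bound ligand of the EGF receptor, went from 6.30, 6.25 and 6.51 to 10.43, 10.37 and 10.67, or 17.5-fold. TNFSF9, the ligand of the co-stimulatory receptor 4-1BB, went from 7.40, 7.44 and 7.28 to 11.64, 11.17 and 11.56, or 17-fold. The gene of that receptor, TNFRSF9, was among those switched on. The largest falls were smaller than these rises by far.

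Among the next were several whose spread was small in both groups. WDR47, a microtubule-associated protein of neurons, went from 8.77, 8.86 and 8.75 to 12.03, 11.93 and 12.04, or 9.24-fold (adjusted p = 2.45e-07). GCH1, which starts the synthesis of the cofactor of tyrosine hydroxylase, went from 6.25, 6.27 and 6.25 to 9.48, 9.35 and 9.48 (log2 difference 3.18 ± 0.05, SE, adjusted p = 2.45e-07), while TH itself stayed at background. NEU1, the lysosomal sialidase, went from 6.87, 6.88 and 7.02 to 10.01, 9.97 and 10.16, or 8.74-fold. TIMP3, a matrix-bound inhibitor of metalloproteases, went from 7.87, 8.13 and 8.41 to 11.23, 11.05 and 11.55. PGM2L1, ARC, FAM43A, ELOVL4, PLK2 and ADAMTS1 rose by 3.44, 3.32, 3.06, 2.93, 2.88 and 2.86 on the log2 scale.

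A pair of genes in the same range were widely spread in untreated cells. CENPE, the motor that carries chromosomes to the spindle equator, read 8.93, 8.08 and 7.41 against 11.35, 11.49 and 11.47, a log2 difference of 3.30 ± 0.37 (SE). CHML, which hands RAB proteins to the enzyme that prenylates them, read 9.13, 8.08 and 7.30 against 11.41, 11.37 and 11.44, a difference of 3.24 ± 0.47. With the chromosome score in the model the differences were 2.53 (adjusted p = 0.00275) and 2.31 (adjusted p = 0.0146). The groups did not overlap in either gene. The other 39 large rises fitted neither class, and 6 of them were at or below background on all 6 arrays. Of the 39, named after their values were seen, JUNB read 5.37, 5.73 and 5.84 against 10.77, 10.34 and 10.90, and the zinc finger repressor SNAI1 5.52, 5.43 and 5.92 against 10.05, 9.72 and 10.36. In both, 1 of the 3 untreated arrays was above background. The protocadherin PCDH10, with 2 of 3 above it, read 5.97, 5.53 and 5.94 against 9.40, 9.61 and 9.86.

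Falls above background on all 6 arrays numbered 269 and reached less far. TMEM150C, a membrane protein linked to mechanically gated currents, went from 9.25, 9.26 and 9.23 to 6.82, 6.73 and 6.58, a log2 difference of -2.54 ± 0.06 (SE, adjusted p = 1.96e-06). DHX32, a helicase-like protein, went from 9.28, 9.58 and 9.62 to 7.13, 6.93 and 6.93. ANKRD1, a transcript that responds to YAP and to stretch, went from 10.00, 10.36 and 10.06 to 7.78, 7.53 and 8.16. These are losses of about 2 log2 units or more from well above background. MMD, a membrane protein first found in maturing macrophages, went from 8.83, 8.97 and 9.04 to 6.79, 6.82 and 6.76.

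The nuclear pore protein NUP210 went from 11.06, 11.24 and 11.59 to 9.26, 9.01 and 9.19. CIRBP, an RNA-binding protein induced by cold, went from 10.58, 10.78 and 10.71 to 8.62, 8.50 and 8.61. STRADB, a pseudokinase partner of LKB1, went from 11.31, 11.58 and 11.66 to 9.66, 9.58 and 9.48. In all 3 the untreated arrays were above 10 and the arrays at 60 nM below 10. DHTKD1, a mitochondrial dehydrogenase of lysine breakdown, fell by 1.89 on the log2 scale (SE 0.07, adjusted p = 1.04e-05). Other falls of this size included those of MIR3198-1, BTBD2, DDB2, PRIM1, MCM3, SLC33A2, CDCA7, DDX23, KRCC1, MED11 and MCM6, by 2.40, 2.15, 2.01, 2.00, 2.00, 2.00, 1.95, 1.89, 1.81, 1.80 and 1.79. PRIM1, MCM3 and MCM6 act at replication forks, DDB2 recognises ultraviolet damage and CDCA7 is a chromatin factor expressed with E2F targets.

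**Figure D4:**
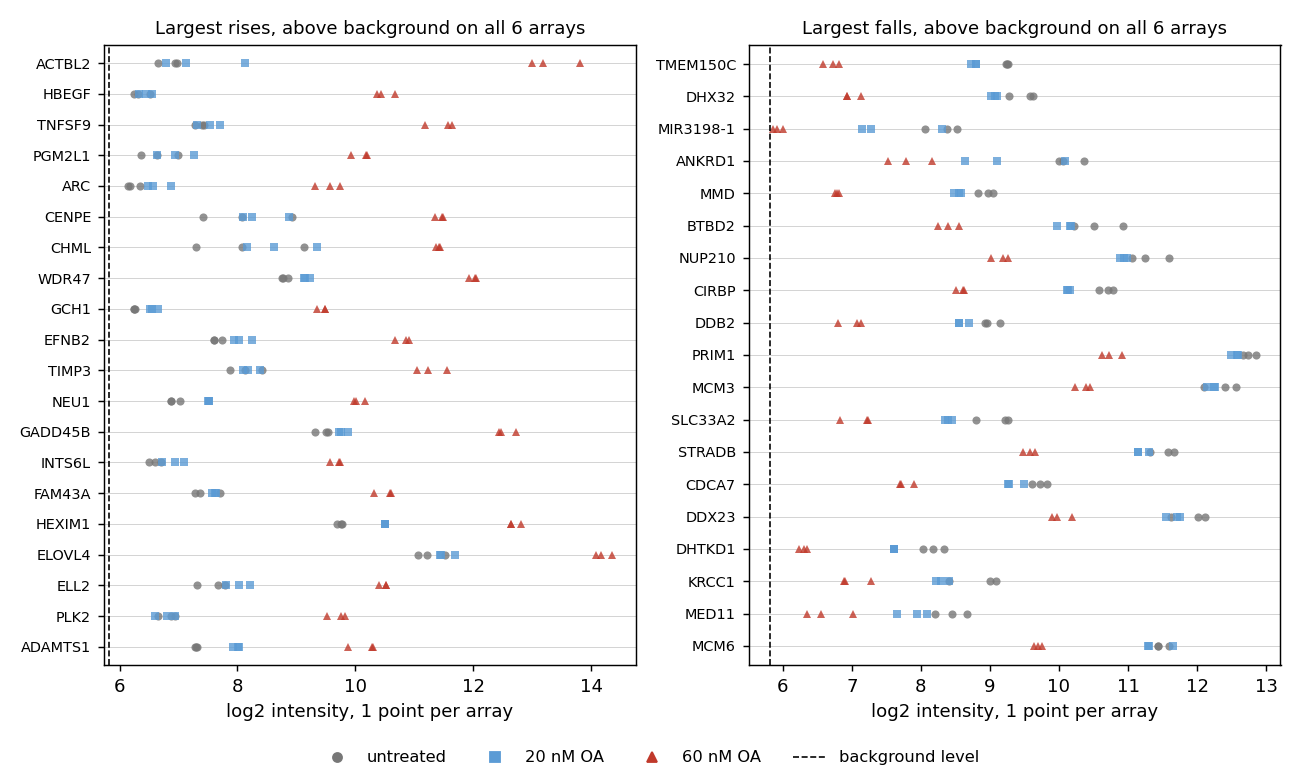
Log2 intensity (horizontal axis) of the 20 largest rises and of 19 of the largest falls among genes above background on all 6 arrays, 1 row per gene and 1 point per array, for untreated cells, 20 nM OA and 60 nM OA. The dashed line is the background level of 5.82. CENPE and CHML show the wide untreated spread, and the 3 points at 60 nM stand apart from the untreated points in each row.

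Large changes were next read by gene family and function. The lists held genes by shared function or name, and those said to be drawn up later were made after values had been seen. Counts of measured members that rose or fell are to be read against 7.94% and 13.2% of all genes, or 14.5% and 26.1% of genes above background. Median differences stand beside 0.0041 over all genes and -0.039 over genes above background.

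Ligands and receptors of cell contact came first. Ephrins are membrane-bound ligands that repel or attract neighbouring cells through Eph receptors, and 3 of 8 measured rose while 0 fell, with a median of 0.063. EFNB2 went from 7.60, 7.61 and 7.74 to 10.91, 10.67 and 10.85, or 8.93-fold (adjusted p = 3.63e-06). EFNB1 and EFNA4 rose by 1.39 (SE 0.12) and 1.26 (SE 0.21). On the receptor side 11 of 47 receptor tyrosine kinases rose and 3 fell, with a median of 0.017, and among the Eph receptors EPHA4 rose by 1.43, EPHA2 by 1.04 and EPHB3, switched on from background, at least 2.48-fold. MERTK, a receptor for the uptake of dead cells, rose by 0.91.

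The Notch pathway passes signals between touching cells through the ligands of the Delta and Jagged type, and 6 of 22 measured members rose while NOTCH2 alone fell, by 0.20, with a median of 0.029. DLL4 was the largest. NOTCH1, the receptor, read 7.14, 7.21 and 7.37 against 8.96, 8.76 and 8.98, a log2 difference of 1.66 ± 0.09 (SE, adjusted p = 3.72e-05). The ligand JAG1 rose by 0.94. NRARP, a feedback inhibitor and target of the pathway, rose by 0.71, but its call did not hold without 60 nM replicate 1 or untreated replicate 2 (adjusted p = 0.0584 and 0.0595) or in a fit of these 6 arrays (adjusted p = 0.0586).

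Secreted factors gave single large rises rather than broad ones. Of 51 growth factors outside the EGF family 5 rose and 4 fell, with a median of 0.026: after KITLG, FGF9 rose by 2.13 and VEGFA, the main driver of vessel growth, by 1.34, and PDGFC fell by 0.33, a call that did not hold with the hybridisation-control shift (adjusted p = 0.598). FGF9 read 7.68, 7.59 and 7.34 against 9.71, 9.69 and 9.61, with no overlap. Of 39 TGF-beta and BMP ligands and inhibitors 5 rose and 2 fell (median 0.048), led by BMP2 (1.70), which binds BMP receptors, and BAMBI (1.34), a decoy receptor of the same family. Of 37 WNT ligands and inhibitors 5 rose and 2 fell (median 0.016). There the inhibitors DKK1, by 2.14, and NKD1, at least 2.26-fold from background, rose. The ligand WNT5A fell to background, a call that did not hold with the hybridisation-control shift (adjusted p = 0.407). Of 82 interleukins and chemokines 2 rose and 2 fell, under the share of all genes.

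G protein signalling showed a pair of marked rises among its regulators. RGS proteins shorten G protein signals by speeding GTP hydrolysis. Of 21 measured, 3 rose and 0 fell, with a median of 0.00. RGS2 read 6.64, 6.69 and 6.64 against 9.32, 9.41 and 9.77, a log2 difference of 2.84 ± 0.11 (SE, adjusted p = 1.02e-05). RGS16 read 6.49, 6.60 and 6.59 against 9.56, 9.001 and 9.58 (2.82 ± 0.15), and RGS10 rose by 0.27, a call that did not hold under 5 alternatives. Of 211 G protein-coupled receptors 17 rose and 12 fell (median 0.015), shares close to those of all genes. CXCR4, the chemokine receptor of migrating cells, read 6.77, 6.75 and 6.95 against 9.41, 9.05 and 9.08 (2.35 ± 0.10). S1PR3 and ADGRV1 rose by 2.04 and 1.52, and the prostaglandin receptor PTGER4, from background, at least 1.31-fold.

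Guidance and adhesion genes changed in both directions. Of 49 semaphorins, plexins, netrins and slits 8 rose and 7 fell (median 0.00): SEMA6A read 6.41, 6.31 and 6.33 against 8.31, 8.14 and 8.36, and the receptor PLXNB2 fell by 1.10. Of 42 protocadherins 4 rose and 0 fell (median 0.0046), PCDH10 and PCDH19 among them past 2-fold. Of 41 collagens 0 rose and 2 fell (median 0.012), and of 8 laminins 0 rose and 3 fell (median -0.13). The calls of these laminins, LAMA4, LAMB2 and LAMC1, did not hold with the hybridisation-control shift (adjusted p = 0.116, 0.138 and 0.382). That of LAMC1 also did not hold with the chromosome score (adjusted p = 0.185).

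The ligands of NKG2D, the activating receptor of natural killer cells, are displayed by stressed cells. In a list drawn up later, 7 of 9 rose and 0 fell, with a median of 0.98. ULBP3 read 10.29, 10.00 and 10.07 against 12.82, 12.60 and 12.93, a log2 difference of 2.66 ± 0.13 (SE, adjusted p = 2.39e-05). ULBP1 read 7.43, 7.01 and 7.10 against 9.53, 9.40 and 9.75 (2.38 ± 0.13). ULBP2, RAET1K and MICA rose by 1.82, 0.52 and 0.38, and RAET1L and RAET1G rose from readings of which 1 and 0 of 3 were above background, whereas MICB had a difference of 0.25 (adjusted p = 0.0998). The ULBP and RAET1 genes are close relatives on 1 chromosome arm, and probes may share signal among them.

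Factors of transcription elongation came next. HEXIM1 belongs to the 7SK particle that holds the elongation kinase P-TEFb inactive, and read 9.76, 9.68 and 9.77 against 12.63, 12.64 and 12.81 (2.96 ± 0.05, adjusted p = 4.75e-07). ELL2, a subunit of the super elongation complex, read 7.79, 7.66 and 7.31 against 10.52, 10.40 and 10.51 (2.89 ± 0.14). Its partner EAF2 read 5.94, 5.66 and 5.64 against 8.35, 8.42 and 8.48 (2.67 ± 0.10), with 1 of the 3 untreated arrays above background. In a later list of 20 P-TEFb and ELL factors 8 rose and CCNT1, the cyclin of P-TEFb, alone fell, by 0.48, with a median of 0.18. The fall of CCNT1 was small beside the rises of HEXIM1, ELL2 and EAF2, and most of the 20 members did not rise. As said above, calls of smaller changes depended on scaling.

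Integrator cleaves small nuclear RNAs and attenuates promoter-proximal transcription, and its 15 measured subunits, again a later list, split evenly with 4 higher and 4 lower (median -0.016). INTS6L read 6.71, 6.50 and 6.60 against 9.73, 9.57 and 9.72 (3.07 ± 0.10, adjusted p = 5.28e-06), and its paralog INTS6 read 7.82, 7.45 and 7.44 against 9.79, 9.65 and 9.68. INTS13 and INTS15 rose by 1.05 and 0.70, and the call of INTS13 did not hold with the chromosome score (0.57, adjusted p = 0.0724), in a fit of these 6 arrays (adjusted p = 0.055) or without 60 nM replicate 1 (adjusted p = 0.0501). INTS9, a partner of the catalytic subunit, INTS1, INTS3 and INTS14 fell by 0.83, 0.47, 0.39 and 0.21. Of 31 subunits of Mediator, the bridge between activators and the polymerase, 1 rose and 9 fell (median -0.044), a share of falls near the 26.1% of genes above background, with MED11, MED31, MED28 and MED12 lower by 1.80, 0.98, 0.89 and 0.81. Of 44 TAF and general factors 5 rose and 12 fell (median -0.069), again near that share. GTF2A1 and GTF2B rose by 1.40 and 1.36, and GTF2H3 and TAF15 fell by 1.57 and 1.47.

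Of 48 bHLH and ID factors 7 rose and 1 fell (median 0.031). MXD1, which competes with MYC for its partner MAX, was the one past 2-fold, at 2.84, and ID2 rose by 0.99. Of 32 bZIP factors outside AP-1 7 rose and 2 fell (median 0.067), led by CREB5 (1.67), and the stress factor DDIT3 rose by 0.98. Of 20 SOX factors 5 rose and 0 fell (median 0.053), SOX4 by 0.93 and SOX9 by 0.87. HOX factors, which set position along the body axis, went the other way. Of 25 measured 0 rose and 7 fell, with a median of -0.15, and HOXA2, HOXC6, HOXB9 and HOXD10 were lower by 1.14, 0.77, 0.66 and 0.57. The call of HOXD10 did not hold with the hybridisation-control shift (adjusted p = 0.0553).

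Small families of stress, decay and transport genes, in lists drawn up later, are given next. ZFP36, ZFP36L1 and ZFP36L2, which bind AU-rich messenger RNAs and bring about their decay, all rose, 3 of 3 measured members: ZFP36 from background at least 1.70-fold, and the others by 1.44 and 1.07 on the log2 scale. Of 6 GADD45 and sestrin genes 5 rose and 0 fell (median 0.74), GADD45B by 3.09, SESN2 by 1.49 and GADD45A by 1.11. Of 4 sodium pump subunits 3 rose and 0 fell (median 0.86), all of them beta subunits: ATP1B2 as given above, and ATP1B1 and ATP1B3 by 1.08 and 0.64. Of the 33 ATG8 and autophagy initiation genes 8 rose and 4 fell (median 0.018). MAP1LC3B rose by 1.50 and GABARAPL1 by 1.36, both of which coat autophagosomes, and GABARAP fell by 0.51. RB1CC1 rose by 1.44 but was widely spread, and its call did not hold with the chromosome score (adjusted p = 0.203), in a fit of these 6 arrays, without any 1 of the 60 nM replicates or without untreated replicate 2 or 3 (adjusted p from 0.0552 to 0.0747). Of 20 genes of triglyceride storage and lipolysis 6 rose and 3 fell (median 0.039): the lipase PNPLA2 rose by 1.45, its co-activator ABHD5 by 1.64, and DGAT1, which makes triglyceride, by 1.24.

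Solute carriers numbered 336, with 37 higher and 58 lower and a median of 0.0046, close to the shares of all genes. The sodium-potassium-chloride carrier SLC12A2 rose by 2.43, the glucose carrier SLC2A3 by 1.83 and the cystine carrier SLC7A11 by 1.69, a call that did not hold with the chromosome score (adjusted p = 0.0539). Of 98 phospholipase, sphingolipid and phosphoinositide enzymes 12 rose and 12 fell (median 0.00), and PIK3R1, the regulatory subunit of PI 3-kinase, rose by 2.17. SERPINE2, a protease inhibitor of the cell surface, rose by 2.16. Among 50 translation initiation factors 6 rose and 14 fell (median -0.091), close to the shares of genes above background. EIF4A3, a part of the exon junction complex, read 13.92, 14.10 and 14.11 against 15.61, 15.55 and 15.79, and EIF2AK4, the kinase that senses uncharged tRNA, fell by 1.23. EIF5B rose by 2.14 and was widely spread.

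**Figure D5:**
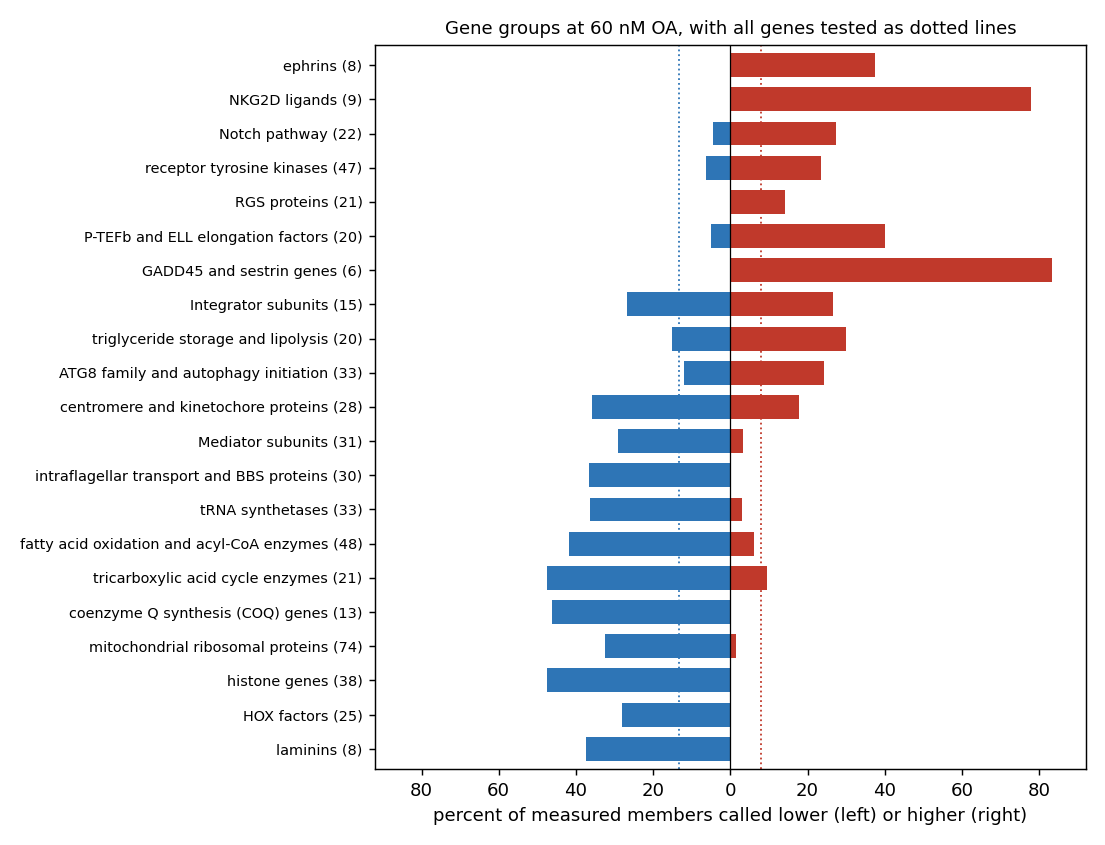
Percent of the measured members of 21 gene groups that fell (bars to the left) or rose (bars to the right) at 60 nM OA, with the number of members in brackets. The dotted lines mark the shares of all genes tested, 13.2% lower and 7.94% higher. Among genes above background the shares were 26.1% lower and 14.5% higher. The groups and their order from top to bottom were chosen with results of these data known. In that order groups of signalling and stress genes lie at the top with bars to the right, and mitochondrial, ciliary, histone and HOX groups at the bottom with bars to the left.

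Several groups of mitochondrial genes held more falls than rises. The tricarboxylic acid cycle oxidises acetyl-CoA in the matrix, and of 21 of its genes 2 rose and 10 fell, with a median of -0.30. OGDH, which oxidises 2-oxoglutarate, read 7.51, 7.70 and 7.92 against 6.44, 6.37 and 6.42 (-1.30 ± 0.09). DLST, a further subunit of the same complex, fell by 0.83, SUCLG2 by 0.79 and IDH2 by 0.75, while IDH1, the cytosolic isoform of IDH2, rose by 0.54. Of 48 genes of fatty acid oxidation and acyl-CoA enzymes 3 rose and 20 fell (median -0.072). CPT2, which completes the entry of long-chain acyl groups, read 7.01, 7.17 and 7.16 against 5.83, 5.79 and 5.82 (adjusted p = 1.03e-05). At 60 nM 1 of its 3 arrays was above background. ACAA2, the last enzyme of the spiral, fell by 1.04, and ACADSB and ACSL1 rose by 1.45 and 1.05.

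Coenzyme Q carries electrons in the inner membrane, and in a later list 0 of 13 genes of its synthesis rose and 6 fell, with a median of -0.22. COQ5, COQ4, COQ9 and COQ2 were lower by 1.34, 1.31, 1.18 and 1.09, and PDSS2 and COQ6 passed the test with readings at background in both groups. Symbol families with at least 6 members above background numbered 251 and were ranked by the share of such members past 2-fold. At the top were NEK with 3 of 6 (50%), COQ with 4 of 9 (44.4%) and ZFP with 4 of 11 (36.4%). The share was 7.57% of 10025 genes above background in either group, and families taken from the top of a ranking exceed it by their choice. ZFP is only a shared symbol root: ZFP36, ZFP36L1 and ZFP36L2 rose, whereas ZFP90 fell. Of 10 NEK kinases, a later list of enzymes of mitosis and the cilium, 2 rose and 4 fell (median -0.053). NEK2 and NEK7 rose by 1.84 and 1.29, NEK7 with a wide untreated spread and no call with the chromosome score (adjusted p = 0.0768), and NEK9 and NEK3 fell by 1.25 and 0.65. NIPSNAP1, NIPSNAP2 and NIPSNAP3A, mitochondrial proteins that flag damaged organelles for autophagy, fell by 1.37, 1.09 and 1.40, 3 of 4 members of a later list.

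Of 74 mitochondrial ribosomal proteins, a later list, 1 rose and 24 fell, with a median of -0.14. MRPL58, MRPS34, MRPS27 and MRPS14 fell by 1.51, 1.37, 1.24 and 1.00, and MRPL39 rose by 0.16. Of 67 mitochondrial carriers and import proteins 9 rose and 20 fell (median -0.097). Of 33 tRNA synthetases, which charge tRNAs in cytosol and mitochondria, 1 rose and 12 fell (median -0.076), QARS1 by 0.80, FARS2 by 0.78 and AARS1 by 0.70, and TARS1 rose by 0.60. The call of TARS1 did not hold with the chromosome score (adjusted p = 0.16) or without 60 nM replicate 1 or 3 (adjusted p = 0.0558 and 0.053). Among 220 proteins named only as transmembrane (TMEM) 13 rose and 61 fell, with a median of -0.0026.

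Intraflagellar transport and the BBSome carry cargo in and out of the primary cilium, and of 30 such genes 0 rose and 11 fell, with a median of -0.16. BBS2, TTC8, BBS4 and MKKS were lower by 1.21, 0.96, 0.83 and 0.66. Histone genes, a later list of 38, had 0 higher and 18 lower (median -0.31). MACROH2A2, a large histone variant of silent chromatin, read 9.21, 9.44 and 9.67 against 7.91, 7.61 and 7.59 (-1.74 ± 0.14), and H2AC21, H2BC12 and H1-2 fell by 1.09, 1.02 and 1.00. With the chromosome score in the model the call of H1-2 did not hold (adjusted p = 0.0848).

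Centromere and kinetochore proteins split by member. Of 28 measured 5 rose and 10 fell, with a median of -0.027. The large outer proteins CENPE, CENPF and KNL1 rose by 3.30, 2.38 and 2.03, and all 3 were widely spread in untreated cells. KNL1, for one, read 9.68, 9.005 and 8.23 against 11.03, 10.95 and 11.01. With the chromosome score in the model CENPF had an adjusted p of 0.083 and KNL1 of 0.0377. NSL1 and DSN1, subunits of the MIS12 complex on which KNL1 sits, fell by 1.46 and 1.30, and CENPX fell by 1.32. NSL1 read 9.41, 9.06 and 9.04 against 7.78, 7.69 and 7.67, with no overlap.

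Small RNA genes had large changes in both directions. Of 257 genes in the snoRNA list 10 rose and 22 fell, with a median of -0.059, and 7 rises and 6 falls were large. SNORD4B, for one, fell by 1.47. U3, the snoRNA that guides early cleavage of the ribosomal precursor, is encoded by the SNORD3 genes, and all 5 measured rose, by 1.93 to 2.24. SNORD3A went from a mean of 13.86 to 15.79. The copies are near-identical and SNORD3B-1 and SNORD3B-2 had equal values on all arrays, so they are not 5 independent readings. Of 217 small nuclear RNA genes 16 rose and 1 fell (median 0.12), 5 past 2-fold: RNU1-12P and RNU1-13P, again equal on all arrays, rose by 2.67, RNU11 by 1.97, RNU12-2P by 1.05 with 2 of 3 untreated arrays above background, and RNU12 at least 2.40-fold from background. RNU11 and RNU12 belong to the minor spliceosome. The 16 rises among the 217 small nuclear RNA genes were a share close to the 7.94% of all genes. The U1 and U12 copies share sequence, and the U3 and small nuclear RNA lists were drawn up later.

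Of 1032 genes that RefSeq annotates as microRNAs 32 rose and 10 fell, and 8 changed by 2-fold or more. The mature sequences of these 8 are shown, since a microRNA gene is of interest through the targets its seed would pair with. They are RefSeq sequences on GRCh38.p14, 5′ to 3′, with the seed, bases 2 to 8, in capitals.
hsa-miR-554: gCUAGUCCugacucagccagu
hsa-miR-3153: gGGGAAAGcgaguagggacauuu
hsa-miR-4521: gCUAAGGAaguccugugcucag
hsa-miR-4737: aUGCGAGGaugcugacagug
hsa-let-7f-5p: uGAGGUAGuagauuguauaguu
hsa-let-7f-1-3p: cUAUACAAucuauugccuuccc
hsa-miR-590-5p: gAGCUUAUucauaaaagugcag
hsa-miR-590-3p: uAAUUUUAuguauaagcuagu
hsa-miR-3671: aUCAAAUAaggacuagucugca
hsa-miR-3198: gUGGAGUCcuggggaauggaga
No seed was shared between the 8 genes. The seed of let-7f-5p is that of the let-7 family, conserved widely among animals. The array measures transcript clusters at these genes in total RNA, not the mature microRNA, and an intronic one may read its host transcript.

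The 3 that rose were MIR554 (chr1:151545811-151545831), at least 2.78-fold from background, MIR3153 (chr9:89312274-89312296), by 1.20, and MIR4521 (chr17:8186948-8186969), by 1.07, all on the plus strand. MIR554 read 4.78, 5.00 and 4.82 against 7.32, 7.26 and 7.30 (adjusted p = 4.19e-05). It lies within TUFT1, whose own probe set read 7.01, 7.25 and 7.36 against 9.99, 9.77 and 9.98, a rise of 2.71. MIR3153 lies within the span of CKS2, which had a difference of 0.12 (adjusted p = 0.385). The call of MIR3153 did not hold with the chromosome score (adjusted p = 0.0601). The call of MIR4521 did not hold without 60 nM replicate 1 or 3 or untreated replicate 1 or 2, with adjusted p from 0.0693 to 0.0862.

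The 5 that fell were MIR3198-1 (chr22:17764190-17764211, minus strand), by 2.40, MIR3671 (chr1:65057762-65057783, minus strand), by 1.58, and MIR590 (chr7:74191213-74191234, plus strand), by 1.40, together with MIRLET7F1 (chr9:94176353-94176374, plus strand), by 1.22, and MIR4737 (chr17:60043077-60043096, minus strand), by 1.21. MIR4737 fell with its host HEATR6, the host by 1.31, but its call did not hold with the chromosome score (adjusted p = 0.0601). At 60 nM 2 of the 3 arrays of MIRLET7F1 were above background. MIR590 fell further than its host EIF4H, which was lower by 0.29, and MIR3198-1 further than BID, lower by 0.57. MIR3671 went against its host JAK1, which rose by 0.74 (adjusted p = 0.000164). For MIRLET7F1 the spanning long non-coding gene had no value.

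At 20 nM the same genes stood nearer to untreated cells. The comparisons with untreated cells share the 3 untreated arrays, so their values are given side by side. The median difference of the 472 large rises was 0.16 at 20 nM and 1.40 at 60 nM, and 432 of them had a 20 nM mean above the untreated mean. The median of the 297 large falls was -0.24 at 20 nM and -1.24 at 60 nM, and 288 had a 20 nM mean below the untreated one. Over all genes 5 passed the test at 20 nM (0.0223%): HEXIM1, SHISA2, FBXW8, and ETV1 and PBLD, the latter pair with untreated and 20 nM readings at background. HEXIM1 had a difference of 0.76 at 20 nM (adjusted p = 0.0074) and SHISA2 of 0.77, against 2.96 and 1.15 at 60 nM. FBXW8, an adaptor of a ubiquitin ligase, had -0.53 and -1.47. HEXIM1 and PBLD had 1 and the same value on all 3 arrays at 20 nM, a repeat that the deposited values show in many genes, and their spread there is therefore 0.

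Families that belong to other tissues served as a reading of the background. Of 364 olfactory receptors 2 rose and 1 fell (0.824%), of 86 keratin-associated proteins and 26 taste receptors 0 changed, and of 29 beta-defensins 1 fell. Of the 66 cancer-testis antigens 1 rose and 1 fell. TEX14, RFPL4AL1 and GABRQ, which are not in these families, were switched on in the same arrays. By gene type 25.5% of 16837 protein-coding genes changed, 7.81% of 1332 long non-coding RNA genes, 4.07% of 1032 microRNA genes and 10.1% of 227 snoRNA genes. The types differed widely in detection: 8494, 166, 174 and 107 of these genes, in the same order, had a mean above background. The shares therefore do not compare how strongly detected genes of each type responded. Of the long non-coding RNAs 4 rose and 12 fell by 2-fold or more, and 3 of the 16 genes lost to background were of this type.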

How the data were processed

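RNA was labelled as biotin cRNA and hybridised to arrays, per the labels' protocols. The authors deposited 1 intensity per probe set and array, on a linear scale, made with RMA per the submitters' processing notes. For the RMA version, the genome build and the annotation, the record was: not given in the sources used here. Of 70523 probe sets 23781 carried 1 gene symbol, and the brightest of each gene was kept, giving 22465 genes, of which 20295 matched RefSeq by gene number. Depth has no counterpart here, and the number of arrays limits the precision. limma 3.58.1 in R 4.3.3 (lmFit, eBayes) was fitted to log2 values of all 9 arrays with a term per group, and p-values were adjusted by Benjamini-Hochberg at 0.05. The fit was tested on simulated data. Genes named were the 20 brightest switched on, the lost ones, the 20 largest rises and falls above background on all 6 arrays, and up to 4 called members per list. Genes from smaller counts were added. Members and lists were chosen with earlier results of these data known. For 1 of the genes so named and 1 of the lists no result is reported here. RefSeq sequences come from GRCh38.p14. Figures used Python 3.11.15 and matplotlib 3.10.9.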

Additional observations from a re-analysis of the deposited data

How the results depend on the processing

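Of the 355 genes followed through 18 other fits none changed direction, and 70 did not hold their call in at least 1 of them. With a score for chromosomal position as covariate, which itself differed between the groups, 1861 genes fell. With log2(value + 16) 7 genes were lost to background. With arrays shifted by their hybridisation controls 1147 genes rose, 1101 fell and 10 were lost to background. Genes switched on and lost numbered 23 and 1 with background at the 90th percentile, 94 and 44 at the highest background value, and 95 and 42 with the background level raised by 1. Leaving out 1 array gave 1323 to 1782 rises, 2261 to 2920 falls, 400 to 574 large rises, 260 to 330 large falls, 44 to 55 genes switched on and 14 to 20 lost. Deviations of same-numbered arrays from their group means correlated little over all genes (0.025, 0.074 and 0.077). Since many of these genes lay at background, this cannot exclude that same-numbered samples were handled together. With a replicate block 1410 genes rose and 2390 fell, 433 and 294 by 2-fold or more, with 44 switched on and 16 lost. Signal over background limits the lost genes, all 16 of which started within about 2 log2 units of it. The causes were not tested.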

Other observations

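Some chromosomes differed in the balance of rises and falls among genes above background. On chromosome 22 4.74% of 190 genes rose and 37.4% fell, on chromosome 16 12.1% and 36.2% of 431, and on chromosome 19 7.41% and 25.8% of 594. On chromosome 8 21.0% of 310 genes rose and 16.5% fell, and on chromosome 13 21.3% and 19.1% of 178. The score for chromosomal position ran from -0.02 to 0.14 on the untreated arrays and from -0.11 to -0.03 at 60 nM, and its part in this balance was not tested. Gene length differed less, with a median of 33.0 kb in large rises, 30.8 kb in large falls and 30.6 kb in genes above background.

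Of the large changes 22 genes had more than 1 probe set, and 0 of these had a probe set of opposite sign. As examples chosen after their values were seen, BCL2L11, a trigger of apoptosis, rose by 1.50 and 1.23 on its probe sets, and C11orf71 fell by 1.10 and 0.65. Of 22465 genes 12364 had 1 value repeated on at least 3 of the 9 arrays. With these genes taken out of the test, 488 large rises and 293 large falls were called among the rest.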
